A study of Mus musculus with 6 samples.

Results

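The genes of the proteasome were examined in RNA-seq of separated corneal epithelium. Members were taken by symbol, as every row of the gene table whose symbol starts with Psma, Psmb, Psmc, Psmd, Psme or Psmg followed by a digit, without the interferon-inducible Psmb8, Psmb9 and Psmb10. This gave 46 of 17866 genes. The 6 libraries came from 6-month-old C57BL/6 mice, 3 labelled WT and 3 labelled Rela-/- (called KO), and each was an independent biological sample. According to the study, the mutants were Krt14-Cre; Rela f/f mice, in which Rela, encoding the p65 subunit of NF-κB, is removed from cells that express K14. These cells include corneal, limbal and conjunctival epithelium, so the deletion is not specific to the cornea, and the labels do not state which alleles the WT mice carried. Each library held between 20158404 and 20880347 estimated counts. Rela itself stood at 85.7, 85.8 and 87.8 CPM (counts relative to library size, scaled by library composition) in the WT libraries and at 16.1, 11.2 and 15.6 CPM in the KO libraries, so the targeted gene was low in the libraries labelled KO.

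The proteasome is the protease that degrades proteins tagged with ubiquitin. Its 20S core is a barrel built of alpha rings, which gate the entry, and beta rings, which hold the catalytic sites. The 19S regulatory particle caps the barrel, where its ATPases unfold substrates and its non-ATPase subunits bind and remove ubiquitin. Other caps, the PA28 and PA200 activators, open the barrel without ubiquitin, and dedicated chaperones assemble each part. In many cells the subunit genes are switched on together, through antioxidant response elements bound by the transcription factors Nfe2l1 (Nrf1) and Nfe2l2 (Nrf2).

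The mRNAs of the core and its 19S cap were higher in the mutant epithelium. Of the 31 genes of 20S and 19S subunits other than the tissue-restricted Psma8 and Psmb11, 29 passed the edgeR quasi-likelihood test in the direction of KO (threshold 0.05, adjusted over all genes) and 0 passed as lower, by edgeR, by DESeq2 or at an unadjusted p under 0.05. The exceptions were Psmc2 and Psmd3. The median log2 fold change of the 31 genes was 0.65, or 1.57-fold, with standard errors between 0.0775 and 0.127. Over all 46 members, 45 had enough counts for the test, of which 32 rose, 1 fell and 12 did not pass. Among all 13305 genes tested, 31.8% were called higher and 30.2% lower. The median log2 fold change was 0.55 for the 45 members and 0.006 for all genes tested. In 35 members every KO library lay above every WT library, as in 34.7% of all tested genes. At the stricter threshold that the study used (0.001 for the adjusted p, together with 2-fold) 1 member, Psmd7, was called, beside 11.6% of all tested genes that were higher by this rule. Since these are bulk samples, a change in the number of cells of a type and a change in the RNA per cell cannot be told apart.

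The size of the rise and the number of calls depended on the handling of gene length and on the scaling between libraries. The members were short genes, with a median effective length of 1284 bases beside 2806 bases for all tested genes. Short genes tended to be higher in KO, in a pool that was not divided by kind of gene. The median log2 fold change was 0.56 for the 964 tested genes under 1000 bases and -0.04 for the 12051 longer ones. After a correction for gene length in each library, 19 members were called higher and 3 lower. Of all 13305 genes, 31.7% were called higher and 3928 genes lower in that fit. The median log2 fold change of the members was 0.22 with the correction. The correction removes any trend with length, whether technical or a shared change of genes that are short. These cannot be told apart here. The deposited TPM values divide by length and sum to the same total in each library. A gene's own length largely cancels in its fold change, so the TPM fit bears mainly on scaling between libraries. On the TPM scale (limma), 20 members were called higher and 6 lower. Of all 13305 genes, 20.7% were called higher and 6350 genes lower on it. On that scale the median of all tested genes was itself at -0.282, and the members lay 0.49 above it, while they lay 0.54 above it in the main fit. In total 15 members kept their call and direction in all 18 alternative fits, namely Psma1, Psma3, Psma4, Psma5, Psma7, Psmc1, Psmc3, Psmc4, Psmc6, Psmd7, Psmd8, Psmd11, Psmd12, Psmd14 and the lower Psme1. The share of all tested genes that did so was not computed, so this count cannot be called particular to the members.

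**Figure D1:**
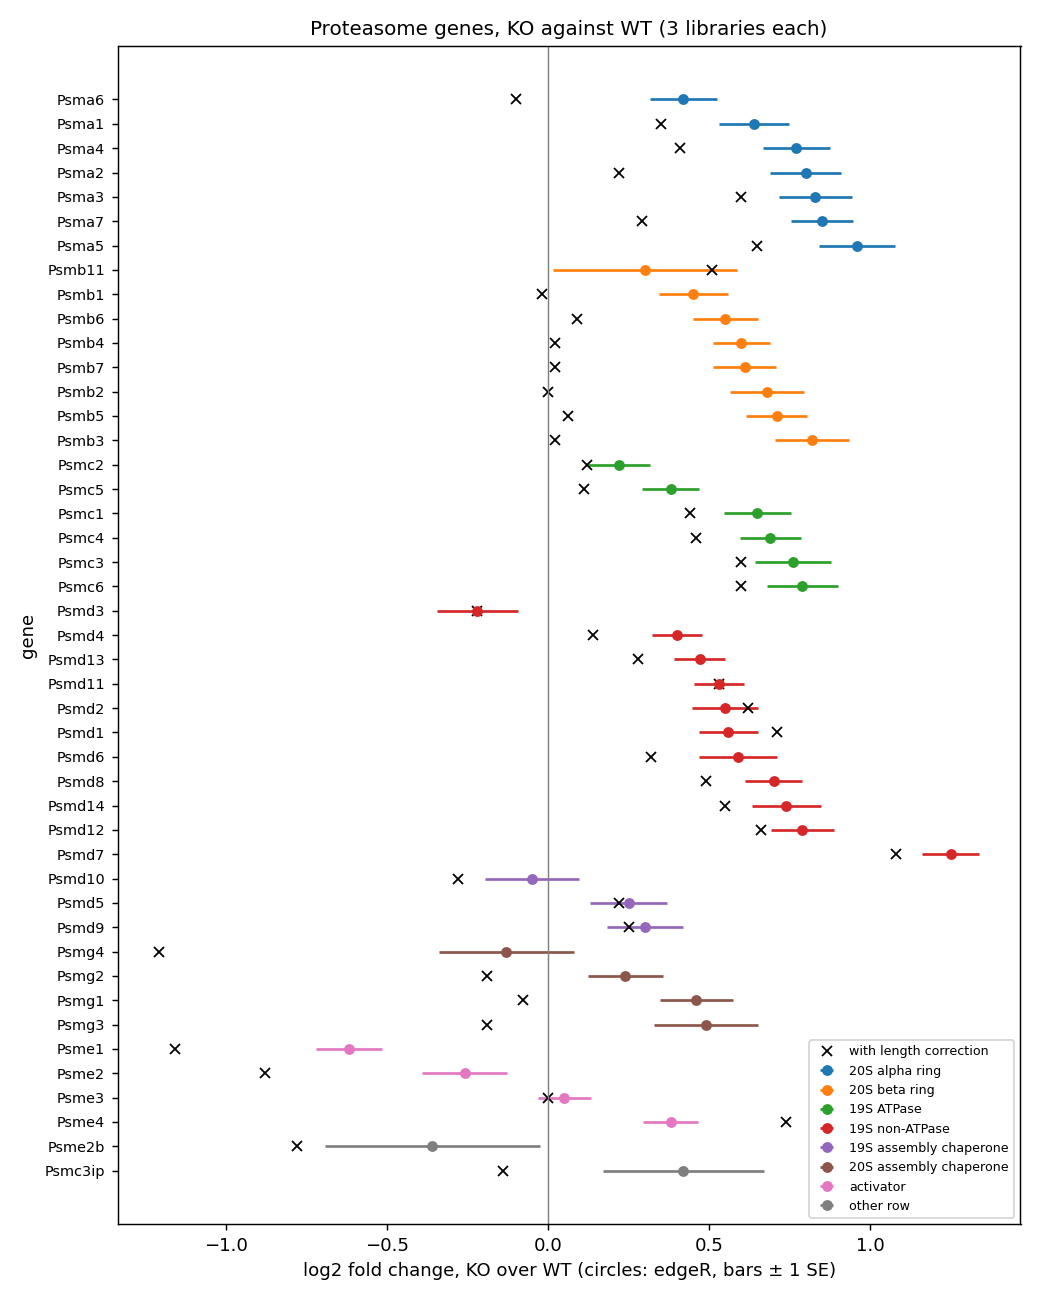
Log2 fold change of KO over WT (x axis) for the 45 tested proteasome genes (y axis), ordered within 8 groups of roles; circles with bars are the edgeR estimate ± 1 SE from 3 libraries per genotype, and crosses the estimate after the length correction. Psmd7 lies farthest to the right at 1.25 and Psme1 farthest to the left at -0.62, and the crosses of the 20S beta ring, except Psmb11, lie close to 0.

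All 7 tested genes of the 20S alpha ring rose, with log2 fold changes from 0.42 to 0.96. Psma5 had 33.4, 37.4 and 37.2 CPM in the WT libraries and 60.0, 79.7 and 69.8 CPM in the KO libraries. Each KO library was well above each WT library (log2 fold change 0.96, SE 0.119, adjusted p = 2.07e-04, edgeR). Psma7, the subunit of highest WT level per length in this ring, had 63.2, 72.2 and 75.9 CPM in WT and 122, 134 and 126 CPM in KO (log2 fold change 0.85, SE 0.0962, adjusted p = 1.16e-04, edgeR). Its testis paralog Psma8 was at 2 counts or fewer in each of the 6 libraries, a level too low to detect at this depth, so it was the member left out of the test. With the length correction, 5 of the 7 alpha genes remained higher (6 on the TPM scale), and Psma2 (0.22, adjusted p = 0.0549) and Psma6 (-0.10, adjusted p = 0.365, edgeR) did not pass.

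In the 20S beta ring, 7 of 8 genes rose, with a median log2 fold change of 0.61 over the 8. Psmb2, the subunit of highest WT level per length, had 78.0, 87.0 and 96.4 CPM in WT and 122, 145 and 151 CPM in KO (log2 fold change 0.68, SE 0.116, adjusted p = 0.00115, edgeR). Psmb5, which carries the chymotrypsin-like site, had 48.5, 50.6 and 53.5 CPM in WT and 76.3, 90.7 and 82.9 CPM in KO (log2 fold change 0.71, SE 0.0952, adjusted p = 2.99e-04, edgeR). The other catalytic subunits Psmb6 and Psmb7 had log2 fold changes of 0.55 and 0.61. The groups did not overlap for any of these 4 genes. Psmb11, the thymus-specific counterpart of Psmb5, lies near it on chromosome 14 (GRCm38, positions 54625310 to 54629556) and was close to absent, with 1.37, 0.884 and 0.947 CPM in WT and 1.22, 1.5 and 1.25 CPM in KO (adjusted p = 0.379, edgeR). The beta genes were the shortest of the groups of subunits, with a median effective length of 922 bases. After the length correction 0 of 8 passed in edgeR, also at an unadjusted p under 0.05, whereas DESeq2 without the correction called 7. The median with the correction was 0.02, and the values of the 7 genes called in the main fit lay between -0.02 (Psmb1) and 0.09 (Psmb6), so that all 7 calls in this ring were lost with it. Whether length accounts for the rise of this ring was not tested. On the TPM scale 5 of the 8 were called higher.

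Of the 6 ATPases of the 19S base, which unfold the substrate, 5 rose and all 6 had every KO library above every WT library. Log2 fold changes ran from 0.22 for Psmc2 to 0.79 for Psmc6. Psmc5, the ATPase of highest WT level per length, had 97.9, 107 and 109 CPM in WT and 135, 146 and 128 CPM in KO (log2 fold change 0.38, SE 0.0885, adjusted p = 0.00537, edgeR). Psmc2 had 90.9, 98.9 and 102 CPM in WT and 103, 124 and 114 CPM in KO, a step of 1.17-fold that did not pass (adjusted p = 0.0754, edgeR). It passed without KO replicate 1 (log2 fold change 0.29, adjusted p = 0.0257, edgeR). With the length correction and on the TPM scale 4 of the 6 ATPase genes were called higher. Psmc5 lost its call in both, at 0.11 (adjusted p = 0.292, edgeR) and 0.04 (adjusted p = 0.672, limma).

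Among the 11 non-ATPase subunits of the 19S particle, 10 rose, and 9 of the 11 were called higher after the length correction, with a median of 0.53. On the TPM scale 5 of the 11 were called higher and 1, Psmd3, lower. Psmd7 (gene 17463, GRCm38 chromosome 8, positions 107580380 to 107588482), the inactive partner of the deubiquitinase Psmd14 in the lid, rose most of all members. It had 59.5, 64.2 and 63.1 CPM in WT and 140, 161 and 144 CPM in KO, which was 2.38-fold higher. The fitted log2 fold change of Psmd7 was 1.25 with an SE of 0.0900 (adjusted p = 1.12e-05, edgeR), and 1.08 with the length correction. Over the 18 alternative fits it lay between 0.90 and 1.29. Among all tested genes, 86.6% had a smaller log2 fold change. Psmd14 had 42.1, 48.9 and 46.9 CPM in WT and 69.2, 85.3 and 76.1 CPM in KO (log2 fold change 0.74, SE 0.107, adjusted p = 4.55e-04, edgeR).

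Because the products of Psmd7 and Psmd14 pair in the complex, their levels were set against each other within each library, which does not depend on scaling between libraries. The ratio of their FPKM (fragments per kilobase of transcript at equal library size) was 1.36, 1.26 and 1.30 in the WT libraries and 1.94, 1.82 and 1.82 in the KO libraries. Every KO ratio exceeded every WT ratio (p = 0.1 by an exact permutation test, two-sided, which is as low as 3 against 3 can go). This pair, and the pair of Psmd3 and Psmd12, were chosen after their values were seen, so the p-values of both pairs are only descriptions.

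Psmd3, a scaffold subunit of the lid, was the only one of the 11 that was not higher. It had 148, 134 and 146 CPM in WT and 147, 108 and 112 CPM in KO, so that KO replicate 1 overlapped the WT libraries while the other two KO libraries lay below them. The fitted log2 value was -0.22 (SE 0.127, adjusted p = 0.16, edgeR), and without KO replicate 1 it was -0.37 (adjusted p = 0.00727, edgeR). It was also called lower in 3 further fits that scaled by total counts or used FPKM, and on the TPM scale. Psmd12, another lid scaffold, had 62.2, 68.9 and 72.7 CPM in WT and 108, 125 and 119 CPM in KO. The FPKM ratio of Psmd3 to Psmd12 was 1.90, 1.56 and 1.60 in WT and 1.09, 0.689 and 0.756 in KO, again without overlap (exact permutation p = 0.1, the smallest possible). Psmd8, the non-ATPase gene of highest WT level per length, had 113, 120 and 127 CPM in WT and 185, 195 and 204 CPM in KO (log2 fold change 0.70, SE 0.0881, adjusted p = 2.18e-04, edgeR).

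The members were also compared library by library. Relative to the WT mean, the median of the 45 members was -0.092, 0.026 and 0.054 on the log2 scale in the WT libraries and 0.430, 0.634 and 0.549 in the KO libraries. KO replicate 1 was the lowest of the KO libraries for 37 of 45 members, and KO replicate 2 the highest for 33. The same order was not computed over all genes tested, so it cannot be called particular to the members.

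**Figure D2:**
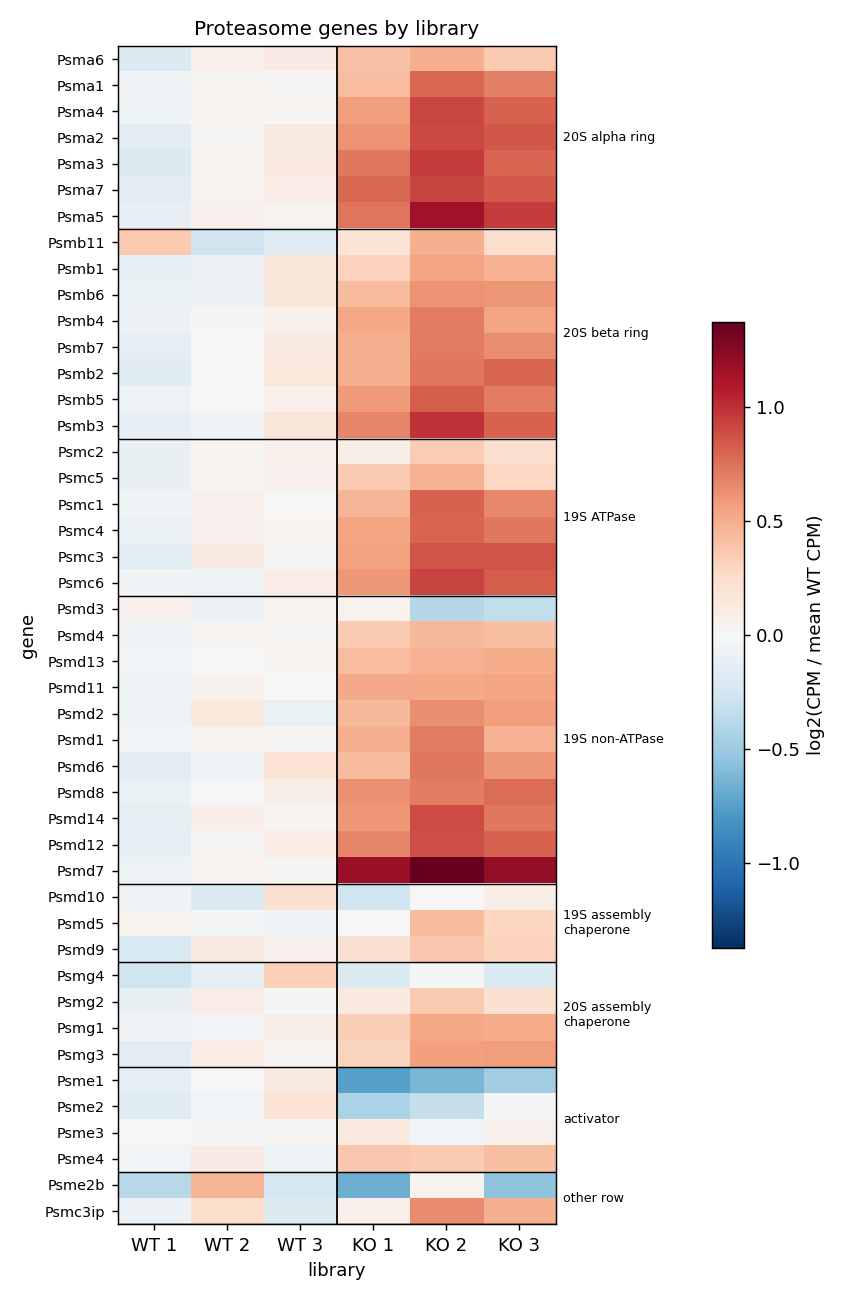
Level of each tested proteasome gene (rows, grouped by role) in each library (columns), as log2 of CPM over the mean WT CPM, where red is higher and blue lower. The KO columns are red in nearly all 20S and 19S rows and blue for Psme1, and KO replicate 1 is paler than the other KO libraries in most rows.

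Per gene length, subunits that share a ring in equal number did not have equal mRNA levels. In WT, FPKM within the alpha ring ran from 30.9 for Psma5 to 76.9 for Psma7, a 2.49-fold range, and within the beta ring, Psmb11 left out, from 61.9 for Psmb5 to 109 for Psmb2. The ATPases ran from 34.9 (Psmc6) to 85.5 (Psmc5), and the non-ATPase subunits from 31.0 (Psmd14) to 82.4 (Psmd8). Averaged over the subunits of a group in each library, the alpha ring had 57.5 ± 3.49 FPKM in WT and 90.8 ± 9.61 in KO, each as mean ± SD with n = 3, the beta ring 83.4 ± 5.27 and 121 ± 11.9, the ATPases 57.0 ± 2.25 and 78.8 ± 8.49, and the non-ATPase subunits 48.9 ± 0.965 and 68.3 ± 4.02. The assembly chaperones were far less abundant, with 13.2 ± 0.260 FPKM in WT for those of the 19S particle and 9.64 ± 0.563 for those of the core.

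Of the 7 assembly chaperones 2 were called, both higher, beside 31.8% of all genes tested that were called higher. Of the 4 genes of 20S chaperones, Psmg1 (log2 fold change 0.46, adjusted p = 0.00768, edgeR) and Psmg3 (0.49, adjusted p = 0.0281, edgeR) rose. Psmg3 was low, with 4.26, 5.07 and 4.83 CPM in WT and 5.82, 6.97 and 7.03 CPM in KO, and lost its call without WT replicate 1, WT replicate 3, KO replicate 2 or KO replicate 3, with adjusted p-values between 0.0511 and 0.0885 (edgeR). Psmg2 had 11.8, 13.6 and 12.6 CPM in WT and 13.9, 16.3 and 14.7 CPM in KO and did not pass (adjusted p = 0.107, edgeR), and Psmg4 had 3.44 to 5.21 CPM in WT and 3.64 to 4.11 CPM in KO (adjusted p = 0.619, edgeR). With the length correction Psmg1, Psmg2 and Psmg3 had log2 fold changes of -0.08, -0.19 and -0.19, and the short Psmg4 was called lower at -1.21 (adjusted p = 9.40e-04, edgeR).

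Of the 3 chaperones of the 19S base 0 passed with edgeR or DESeq2, and 1, Psmd9, had an unadjusted p under 0.05 (edgeR). Psmd5 had 41.0, 39.3 and 38.4 CPM in WT and 39.5, 53.3 and 48.7 CPM in KO, so that KO replicate 1 overlapped the WT libraries (adjusted p = 0.0967, edgeR), and it passed without that library (log2 fold change 0.37, adjusted p = 0.0106, edgeR). Psmd9 had 16.4, 20.6 and 19.7 CPM in WT and 21.9, 24.5 and 23.5 CPM in KO, without overlap (adjusted p = 0.0527, edgeR), and was called higher in 5 of 18 alternative fits. Psmd10, known as gankyrin, had 15.7, 14.2 and 18.7 CPM in WT and 13.4, 16.1 and 17.3 CPM in KO (adjusted p = 0.774, edgeR).

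The activators did not move in 1 direction. Psme1 (gene 19186, GRCm38 chromosome 14), which encodes the alpha subunit of PA28 and is induced by interferon, was the only member that fell. It had 116, 126 and 137 CPM in WT and 75.2, 81.7 and 90.3 CPM in KO (log2 fold change -0.62, SE 0.103, adjusted p = 9.88e-04, edgeR). No KO library reached a WT library, and the call was kept in all 18 alternative fits, with values from -1.16 to -0.54. Its neighbour Psme2, the beta subunit of PA28, had 98.4, 107 and 125 CPM in WT and 81.3, 87.8 and 108 CPM in KO, where KO replicate 3 overlapped the WT libraries (log2 fold change -0.26, SE 0.133, adjusted p = 0.127, edgeR). Psme2 was called lower in 7 of 18 alternative fits, among them the length correction (-0.88, adjusted p = 2.34e-04, edgeR). Its estimated counts were never whole numbers, as when reads are divided among loci, and Psme2b, a close copy of Psme2, was at 1.24, 2.23 and 1.37 CPM in WT and 1.01, 1.66 and 1.10 CPM in KO. The level of Psme2 is uncertain to that extent.

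Psme3, the nuclear PA28 gamma, had 103, 102 and 104 CPM in WT and 113, 100 and 107 CPM in KO (log2 fold change 0.05, adjusted p = 0.633, edgeR), and its sign depended on the scaling. On the TPM scale it was called lower (-0.30, adjusted p = 0.0102, limma), where the median of all tested genes was itself at -0.282. Psme4, which encodes PA200, rose from 105, 117 and 103 CPM to 140, 138 and 144 CPM (log2 fold change 0.38, SE 0.0841, adjusted p = 0.00453, edgeR). Psme4 has the longest mRNA of the members, and with the length correction its log2 fold change was 0.74. On the TPM scale it was 0.04 and the call was lost (adjusted p = 0.743, limma).

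In WT epithelium Psme1 was the most abundant member per length, at 136 ± 8.46 FPKM, and in KO it stood at 83.1 ± 7.95 FPKM, below Psmb2 at 163 ± 19.7 FPKM (n = 3, ± SD). Set against the mean of Psma1 to Psma7 in the same library, the FPKM ratio of Psme1 was 2.38, 2.30 and 2.41 in WT and 0.918, 0.837 and 0.998 in KO. The same ratio for Psme2 was 2.2, 2.13 and 2.40 in WT and 1.08, 0.981 and 1.31 in KO, and for Psme3 it was 0.770, 0.680 and 0.672 in WT and 0.5, 0.374 and 0.430 in KO. In each case the groups did not overlap (exact permutation p = 0.1, two-sided, the smallest possible). In the main fit the alpha genes rose while Psme3 stood at a log2 fold change of 0.05, so there the lower ratio of Psme3 restates the rise of the alpha ring.

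The inducible catalytic subunits, which replace Psmb5, Psmb6 and Psmb7 in the immunoproteasome, were not higher in KO. Psmb9 had 12.4, 15.8 and 17.7 CPM in WT and 8.05, 6.52 and 11.9 CPM in KO (log2 fold change -0.79, SE 0.230, adjusted p = 0.016, edgeR). This call was lost without WT replicate 3 (adjusted p = 0.0581) and without KO replicate 1 (adjusted p = 0.0544, edgeR). Psmb8 (-0.32, adjusted p = 0.175, edgeR) and Psmb10 (-0.05, adjusted p = 0.77, edgeR) did not pass, and for both the groups overlapped. Psmb8 was called lower in 4 of 18 alternative fits, among them the length correction (-0.62, adjusted p = 0.014, edgeR) and the TPM scale (-0.65, adjusted p = 0.00757, limma). Psmb10 was called lower on the TPM scale (-0.42, adjusted p = 0.0148, limma), where the median of all tested genes was itself at -0.282. The FPKM ratio of Psmb8 to Psmb5 was 0.510, 0.533 and 0.692 in WT and 0.261, 0.239 and 0.355 in KO. That of Psmb9 to Psmb6 was 0.235, 0.294 and 0.285 in WT and 0.108, 0.0763 and 0.141 in KO, and that of Psmb10 to Psmb7 was 0.198, 0.195 and 0.204 in WT and 0.121, 0.107 and 0.146 in KO. All 3 ratios were without overlap between the groups (exact permutation p = 0.1, the smallest possible). A ratio moves with either of its genes. For Psmb10 to Psmb7 the difference lay in Psmb7 in the main fit (log2 fold changes of 0.61 for Psmb7 and -0.05 for Psmb10), and with the length correction these values were 0.02 and -0.33.

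**Figure D3:**
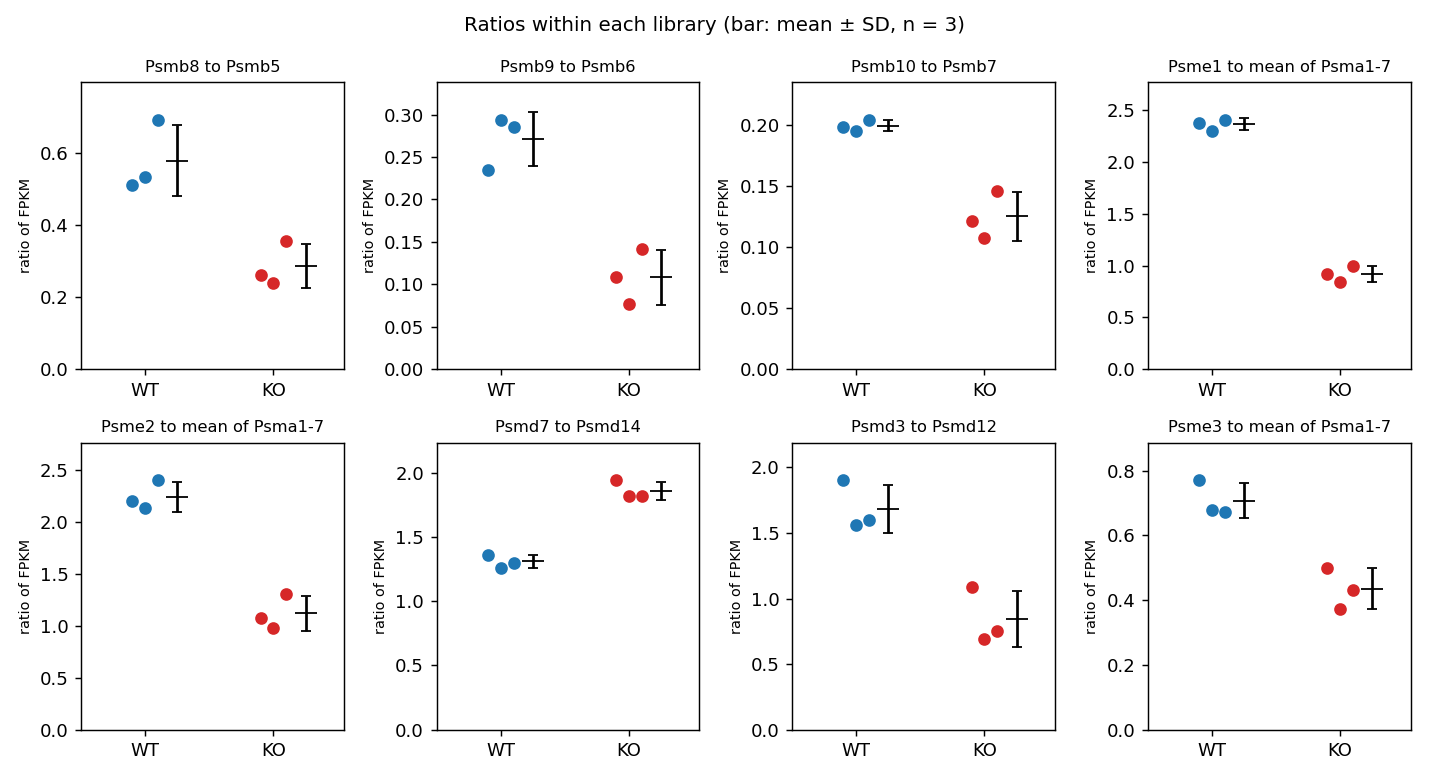
FPKM ratios within each library (y axis, from 0) for 8 pairs, with WT libraries in blue and KO libraries in red, and black bars for mean ± SD (n = 3). Each inducible catalytic subunit over its constitutive counterpart, and each PA28 gene over the alpha ring, lies lower in every KO library than in every WT library, whereas Psmd7 over Psmd14 lies higher. Psmb8, Psmb10, Psme2 and Psme3 did not pass the test by themselves in the main fit, where their denominators rose.

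Genes of antigen presentation and of the interferon response were measured beside Psme1 and the inducible subunits. Of 11 listed genes, 9 fell and 2 rose, with a median log2 fold change of -0.83. Among all genes tested, 30.2% were called lower and 31.8% higher. Irf1, a transcription factor that induces the immunoproteasome genes, had 269, 222 and 287 CPM in WT and 105, 131 and 160 CPM in KO (log2 fold change -0.98, adjusted p = 0.00105, edgeR). The genes that rose were B2m (1.71, adjusted p = 3.49e-04, edgeR) and Nlrc5 (3.0, adjusted p = 0.0017, edgeR). Nlrc5 had 0.687, 2.7 and 0.521 CPM in WT and 9.57, 6.77 and 14.9 CPM in KO. Leukocytes express Psme1 and the immunoproteasome constitutively. Of 14 leukocyte markers 11 were tested, and 10 of these rose, among them Ptprc (CD45), which had 0.595, 0.233 and 0.379 CPM in WT and 5.32, 4.36 and 6.13 CPM in KO. The sum over the list was 247 to 322 CPM in WT and 340 to 474 CPM in KO. In WT most of this sum was Itgam, the marker that fell, which had 257, 233 and 307 CPM in WT and 137, 185 and 202 CPM in KO. Their part in the PA28 and Psmb9 values was not tested.

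The epithelium itself also differed between genotypes. All 6 corneal markers fell, with a summed level of 93000 to 96200 CPM in WT and 21500 to 24300 CPM in KO. The corneal keratin Krt12 was among them, with 36100, 37800 and 35800 CPM in WT and 5560, 7770 and 8040 CPM in KO. Of the 5 tested of 6 epidermal markers, 4 rose and 1 fell (Krt2 was at 0 in WT), and all 4 conjunctival and mucosal markers rose, Muc5ac from 0 in each WT library. Of 10 stromal and vessel markers, 9 were in the table, and all 6 that were tested rose, with sums of 2.29 to 5.49 CPM in WT and 26.4 to 39.9 CPM in KO (Kdr and Lum were at 0 in WT). Of 8 proliferation genes, 5 rose (sums of 371 to 591 CPM in WT and 699 to 844 CPM in KO). For all genes tested the shares were 31.8% higher and 30.2% lower. The part of this shift in cell identity in the proteasome values was not tested.

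Components and partners of the proteasome that the symbol rule did not take were compared next. Of 19 listed symbols 16 were in the table, and 8 of these rose and 2 fell, beside 31.8% and 30.2% of all genes tested. Sem1, the smallest 19S subunit, had 30.1, 36.5 and 36.5 CPM in WT and 72.3, 89.4 and 80.6 CPM in KO (log2 fold change 1.23, SE 0.118, adjusted p = 4.99e-05, edgeR), but only 0.07 with the length correction (adjusted p = 0.514, edgeR). Uchl5, a deubiquitinase of the 19S particle, had 14.1, 17.3 and 15.2 CPM in WT and 31.7, 36.0 and 32.4 CPM in KO. The step of Uchl5 was 1.10 on the log2 scale (SE 0.115, adjusted p = 7.67e-05, edgeR) and 0.91 with the length correction. Adrm1, the ubiquitin receptor that recruits Uchl5, rose by 0.31 (adjusted p = 0.027, edgeR), and its call was kept in 8 of 18 alternative fits. Pomp, the maturation factor of the core, rose by 0.78 (adjusted p = 2.56e-04, edgeR) and stood at -0.02 with the length correction. Psmf1, which encodes the proteasome inhibitor PI31, fell from 38.0, 39.6 and 37.8 CPM to 26.1, 27.5 and 27.2 CPM (log2 fold change -0.52, SE 0.0853, adjusted p = 9.49e-04, edgeR), being lower in all 18 alternative fits. Rad23b, a shuttle factor that brings tagged proteins to the proteasome, rose by 0.55 on the log2 scale (adjusted p = 0.00467, edgeR).

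Of 6 genes for ubiquitin and its activating enzymes, 3 rose and 0 fell (0 also by DESeq2 and at an unadjusted p under 0.05). The shares over all genes tested were 31.8% higher and 30.2% lower. Rps27a, which encodes ubiquitin fused to a ribosomal protein, had a log2 fold change of 0.97 in the main fit and 0.16 with the length correction, where it did not pass (adjusted p = 0.189, edgeR). Uba6, a second activating enzyme, rose from 41.6, 40.1 and 38.9 CPM to 58.2, 71.8 and 66.7 CPM (log2 fold change 0.71, SE 0.101, adjusted p = 4.25e-04, edgeR). With the length correction it stood at 1.00.

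The listed transcription factors, with genes of protein degradation at the endoplasmic reticulum, did not share 1 direction. Of these 12 genes, 4 rose and 4 fell, near the shares of all genes tested (31.8% higher and 30.2% lower). The list was not divided by whether a gene acts for or against the proteasome genes. Among the genes of that degradation, Sel1l (log2 fold change -0.43) and Syvn1 (-0.37) fell and Vcp (0.27) rose. Nfe2l2, which encodes Nrf2, had 95.7, 97.6 and 96.5 CPM in WT and 469, 556 and 471 CPM in KO, a 5.16-fold step with no overlap (log2 fold change 2.37, SE 0.106, adjusted p = 1.28e-06, edgeR). Its values over the 18 alternative fits lay between 2.01 and 2.41. Nfe2l1, which encodes Nrf1 and restores proteasome genes after inhibition of the protease, had 146, 176 and 144 CPM in WT and 154, 124 and 130 CPM in KO. The groups overlapped (log2 fold change -0.19, SE 0.120, adjusted p = 0.19, edgeR). Nfe2l3, a further member of this family, fell from 99.1, 87.5 and 103 CPM to 68.8, 63.1 and 67.7 CPM (log2 fold change -0.54, adjusted p = 0.00123, edgeR). Of the small Maf partners of these factors, Mafg rose by 0.55 and Mafk fell (log2 fold change -0.66). Ngly1, the enzyme that activates Nrf1 by removing its sugars, rose by 0.53 (adjusted p = 0.0036, edgeR).

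**Figure D4:**
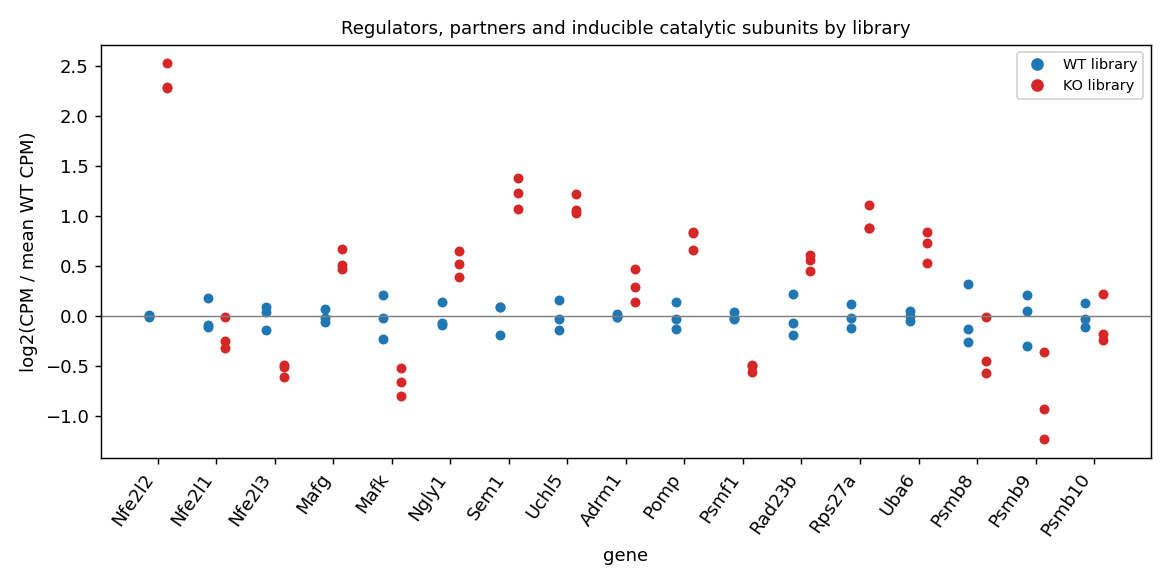
Level of genes outside the symbol rule (x axis) in each library, as log2 of CPM over the mean WT CPM (y axis), with WT libraries in blue and KO libraries in red. Nfe2l2 is the farthest from 0, with all 3 KO libraries above 2, while 1 KO library of Nfe2l1 lies among the WT libraries and the others just below them.

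Promoters were searched for the element that the Nrf factors bind. RefSeq promoter sequences (GRCm38.p6, 250 bases before to 50 bases after a start of the gene) were matched for 38 of the 46 members. The core of the antioxidant response element, TGACNNNGC on either strand, was found in 6 of the 38 (15.8%), beside 14% of all 27025 genes with a promoter sequence and 16.8% of those tested here. The form with a further A was found in 2 of the 38, Psmd12 and Psme4 (5.26%, beside 3.45% of all genes). A CCAAT box was found in 14 of the 38 (36.8%, beside 41.1% of all genes), and a form of the NF-κB site, GGG, any 2 bases and TTTCC, in 0 of the 38, beside 1.89% of all genes. The share with each element was thus near that of all promoters, or too small to compare. The 6 matches are shown because they are the only copies of the searched element among these promoters. Each is printed on the strand that reads TGACNNNGC, with these letters in capitals and up to 10 bases on each side in lower case. A match is a description of letters and not a bound site.
Psmb5, chr14:54618024-54618052, minus strand: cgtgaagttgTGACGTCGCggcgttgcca
Psmb6, chr11:70525338-70525366, plus strand: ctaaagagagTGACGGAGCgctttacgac
Psmd9, chr5:123228149-123228177, plus strand: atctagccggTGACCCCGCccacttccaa
Psme4, chr11:30771758-30771786, minus strand: gctcttctggTGACGCTGCagccgcagcg
Psmc6, chr14:45329587-45329615, minus strand: gagcaatgccTGACTTAGCtactggctgg
Psmd12, chr11:107479278-107479299, minus strand: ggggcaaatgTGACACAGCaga

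The matches of Psmb5, Psmb6, Psmd9 and Psme4 lay close to the start used for the promoter sequence, with centres at -43, -5, -27 and -3 bases from it, and those of Psmc6 and Psmd12 at -223 and -243 bases. That start need not be the first base of the gene. For Psmb6 the RefSeq gene start (position 70525324) lies before the match. In the main fit 5 of these 6 genes rose (Psmd9 did not pass), beside 32 of the 45 tested members, with log2 fold changes from 0.30 for Psmd9 to 0.79 for Psmc6 and Psmd12. Psmd7 and Psmb2, which are among the genes described above, were not matched to a promoter sequence.

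Of the 46 members, 10 share exon bases with a gene on the opposite strand and 4 with a gene on the same strand in the GENCODE annotation. Whether the counting used strand is not given in the sources used here, so reads of Psmd9, which shares 25.5% of its exon bases with a non-coding RNA on the other strand, and of Psmc3ip, which shares 21.2% with Mlx, cannot be told apart from those of their neighbours. Psmc3ip encodes a meiotic recombination factor and is no proteasome subunit, although its symbol follows the rule. It had 1.79, 2.23 and 1.66 CPM in WT and 1.98, 2.96 and 2.64 CPM in KO (adjusted p = 0.178, edgeR). Among the tested members, 38 had whole-number counts (within 1e-06) in at least 5 of 6 libraries. Those never whole were 6, among them the alpha genes Psma3 and Psma4, whose log2 fold changes of 0.83 and 0.77 lay in the range of the rest of their ring.

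**Figure D5:**
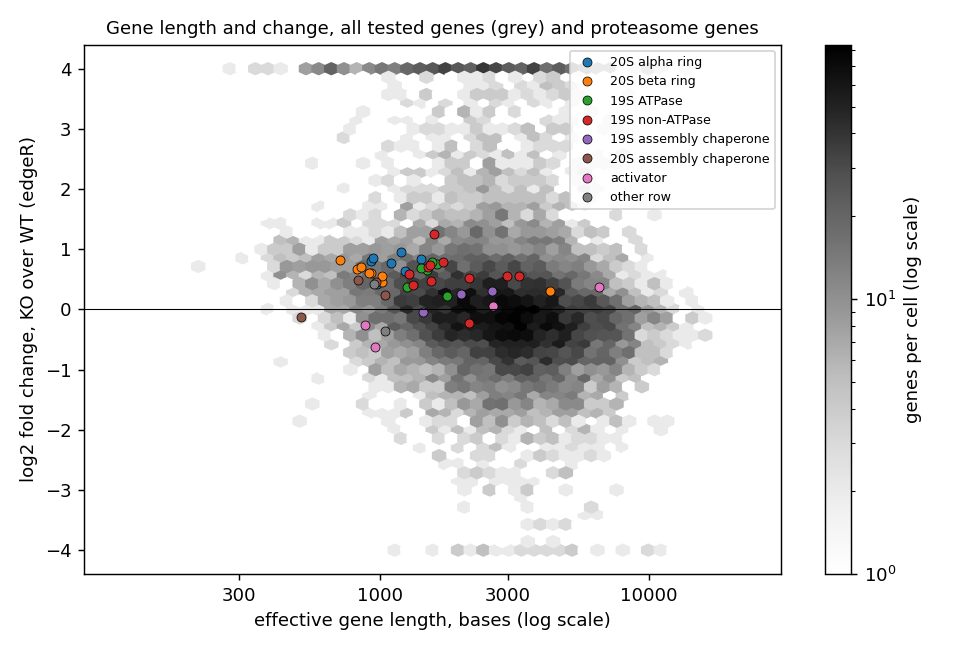
Log2 fold change of KO over WT (y axis, values outside the axis drawn at its limits) against effective gene length in bases (x axis, log scale) for tested genes with a length (grey cells, darker for more genes) and the proteasome genes (coloured by role). Most proteasome genes lie left of the median length of 2806 bases of all tested genes and above 0, while Psme4 lies at the right.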

How the data were processed

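Corneal epithelium in 3 WT and 3 KO samples was profiled by bulk RNA-seq. Reads were filtered (SOAPnuke) and aligned (Bowtie2 2.2.5) by the authors, who deposited estimated counts, FPKM and TPM from RSEM 1.2.12 for 17866 genes. The submitters' notes list mm9, but the table's start and end equal those of GRCm38.p6 for 23 of 46 members. The deposited estimated counts were rounded, filtered by filterByExpr and scaled by TMM, and genotype was tested by glmQLFTest (edgeR 4.0.16, R 4.3.3). Adjustment was by Benjamini-Hochberg over 13305 genes, and each SE was derived from the log2 fold change and its F statistic. The deposited FPKM values were used for levels between genes and for ratios, and the deposited TPM values for an alternative fit. The authors' own fold changes and p-values in the table were not used. Effective length was derived from counts and FPKM, and the length correction used, as an offset, a loess fit of each library's log counts against log length. Alternatives were RLE or no composition factors, TMM without the 20 genes of highest count, no filter or a filter at a mean of 50 counts, robust dispersion, DESeq2 1.42.0, limma 3.58.1 on log2(FPKM + 1), log2(FPKM + 0.1) and log2(TPM + 1), the length correction, a replicate block and leaving out each library. The TPM fit, a count without Psmc3ip and Psme2b, and the pairs Psmd7 with Psmd14 and Psmd3 with Psmd12 were added after seeing the data. The ratios and their permutation tests were not among the planned tests. The members, gene lists and tests were chosen with earlier results of these data known, so counts over them are descriptions. Values in every library were given for the 3 largest rises and the falls among called members, the member of highest WT FPKM per role, uncalled members whose sign turned with scaling, and paralog pairs. Some genes of the lists are counted but not reported here by name. Tests were tried on simulated data, and exact permutation tests used scipy 1.17.1. Exon overlaps came from GENCODE M21. P-values measure the spread between these samples, and estimated counts carry no correction for PCR copies.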

Additional observations from a re-analysis of the deposited data

How the results depend on the processing

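The number of members called higher was 32 and lay between 31 and 34 in the fits other than those named next, and was 30 among the 38 members with whole-number counts. It was 20 on the TPM scale, 19 with the length correction, and 1 at the threshold of the study. The number called lower was 1, and 3 with total counts only, with log2(FPKM + 1), with log2(FPKM + 0.1) and with the length correction, 6 on the TPM scale, 0 at the threshold of the study, and between 1 and 2 when each library was left out. The median log2 fold change of 0.55 became 0.44 with log2(FPKM + 1), 0.21 on the TPM scale and 0.22 with the length correction. DESeq2 gave 32 higher and 1 lower. With total counts only, 44.5% of all calls were higher, with FPKM 44.6% to 44.8% and with TPM 30.3%, beside 51.3% in the main fit.

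Signs turned as follows. With the length correction, Psma6 was at -0.10, Psmb1 at -0.02, Psmb2 at 0.00 (just below 0), Psmg1 at -0.08, Psmg2 and Psmg3 at -0.19, Psmc3ip at -0.14, Pomp at -0.02 and Nfe2l1 at 0.00. On the TPM scale, Psmc2 was at -0.12, Psmd5 and Psmg2 at -0.10, Psmd9 and Adrm1 at -0.04, Psmb11 at -0.02 and Psme3 at -0.30. Psme3 was at -0.05 with total counts and log2(FPKM + 1) and at -0.06 with log2(FPKM + 0.1). Leaving out each library in turn gave -0.14 to 0.08 for Psmd10, -0.24 to 0.08 for Psmg4 and -0.21 to 0.03 for Psmb10, all negative with all libraries. The cause was not tested.

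The titles number the libraries 1 to 3 in each genotype, but same-numbered libraries did not deviate together (r = 0.0646, -0.0217 and 0.0640 across genes). With the replicate block, 33 members were higher and 2 lower.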
